A study of Mus musculus with 10 samples.

Results

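The 10 alpha and beta tubulin genes described here were taken by gene symbol from the authors' table of 23337 genes: Tuba1a, Tuba1b, Tuba1c, Tuba4a and Tuba8 encode alpha tubulins, and Tubb2a, Tubb2b, Tubb4b, Tubb5 and Tubb6 encode beta tubulins. All 10 had a fold change and an adjusted p-value there. RNA was sequenced from cardiomyocytes of wild-type mice that had received adeno-associated virus of serotype 9 (AAV9) on postnatal day 1, and the cells were collected on postnatal day 14. In the dnMKL1 group the virus carried dnMKL1 with GFP, and in the GFP group it carried GFP alone. In both groups the virus used the cardiac troponin T promoter (cTNT), which is active in cardiomyocytes, at 5e+08 viral genomes per gram of body weight, and the cells were sorted by fluorescence after collagenase perfusion. The labels name 5 GFP and 5 dnMKL1 biological replicates and do not say whether a library came from a single animal. dnMKL1 is a dominant-negative form of MKL1 (MRTF-A), a coactivator of serum response factor (SRF) that is itself controlled by the state of the actin cytoskeleton. The comparison asks which tubulin transcripts change in level when cardiomyocytes make dnMKL1.

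Microtubules are hollow polymers of alpha and beta tubulin heterodimers. Mammals encode each subunit in several genes, called isotypes, whose products differ most in the acidic carboxy-terminal tail that projects from the polymer surface. In most alpha tubulins the tail ends in a tyrosine, which vasohibins remove and tubulin tyrosine ligase adds back. In heart muscle, detyrosinated microtubules are anchored to desmin at the sarcomere, buckle under load during contraction and add to the stiffness of the cell. Cells also adjust tubulin mRNA to the amount of free dimer, through decay of mRNA during its translation.

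The last bases of the coding sequences of Tuba4a and Tuba8 are shown because these are the isotypes that fell, and their tails do not end in the tyrosine on which the enzymes above act. Each run is 5′ to 3′, ends with the stop codon, and has the last codon before the stop in capitals. The sequences were read from GENCODE M21 transcripts on GRCm38, the assembly that mm10 in the submitters' processing notes also names.
Tuba4a: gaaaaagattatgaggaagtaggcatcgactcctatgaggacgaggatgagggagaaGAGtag
Tuba8: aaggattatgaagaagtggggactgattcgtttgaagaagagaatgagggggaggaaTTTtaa

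In Tuba4a the last codon, GAG, stands for glutamate, so that this isotype carries no encoded tyrosine at its end. In Tuba8 it is TTT, for phenylalanine.

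Mkl1 gave the sign of the fold change, which the headers do not state, and so is no check of the labels: the authors' deposited table lists it at 9.80 on the log2 scale (standard error, SE, 0.15), so positive values mean higher in dnMKL1 libraries. Srf, itself a target of SRF, fell by 0.80 (SE 0.10, adjusted p = 2.6e-13) there. Reads of the vector and of the endogenous gene are not separated in the value of Mkl1. The table has no value per library, so the level of a gene in each group is an implied mean, computed from the authors' base mean and fold change and given in normalized counts (reads divided by the authors' size factors). Size factors recovered from genes with a single read put the depth of GFP libraries at 8803005 to 17123500 counts and that of dnMKL1 libraries at 8835151 to 17228537. A gene is called when its adjusted p-value (Wald test with Benjamini-Hochberg adjustment, by the authors) is under 0.05. Of 14056 genes tested, 34.1% were called, with 16.6% higher and 17.4% lower in dnMKL1 libraries, so a call alone is common in this comparison.

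Of the 10 tubulin genes, 4 were called, and all 4 are alpha isotypes: Tuba1a and Tuba1c rose, and Tuba4a and Tuba8 fell. The share called was close to that of all tested genes (34.1%). The members' median log2 fold change was 0.030, beside 0.021 over all tested genes, with 5 members above 0 and 5 below.

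Tuba1a, an isotype best known from developing neurons and growing cells, had implied means of 447 normalized counts with GFP and 1035 with dnMKL1. The authors' deposited table gave a log2 fold change of 1.21 (SE 0.22, adjusted p = 5.1e-07), a 2.32-fold rise, with a 95% interval from 0.78 to 1.64. It was the highest fold change of the 10 genes and exceeded that of 94.9% of all tested genes. Tuba1c, a close relative found in many tissues, had implied means of 174 and 312 normalized counts. The authors' deposited table put its log2 fold change at 0.84 (SE 0.18, adjusted p = 2.5e-05), with an interval from 0.49 to 1.19. Both intervals lay wholly above 0. Tuba1b, the third of these relatives and a common isotype of dividing cells, had implied means of 775 and 759 normalized counts. For Tuba1b the authors' deposited table gave -0.029 (SE 0.16, adjusted p = 0.921), with an interval from -0.33 to 0.28, which does not reach the estimates of Tuba1a or Tuba1c.

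Tuba4a, the most abundant tubulin transcript in these libraries and an isotype of muscle and other differentiated tissues, had implied means of 14987 normalized counts with GFP and 8445 with dnMKL1. The authors' deposited table gave a log2 fold change of -0.83 (SE 0.16, adjusted p = 4.2e-06), a 1.77-fold fall. Tuba8, an isotype with most of its expression in striated muscle and testis, had implied means of 2922 and 1483 normalized counts. For Tuba8 the authors' deposited table gave -0.98 (SE 0.21, adjusted p = 2.5e-05), a 1.97-fold fall. The intervals ran from -1.15 to -0.51 for Tuba4a and from -1.39 to -0.57 for Tuba8, wholly below 0 and apart from those of Tuba1a, Tuba1b and Tuba1c. In all tested genes, only 4.87% had a lower fold change than Tuba4a and 3.27% a lower one than Tuba8. In RNA from a pool of cells, fewer cells of a type and less RNA per cell cannot be told apart.

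**Figure D1:**
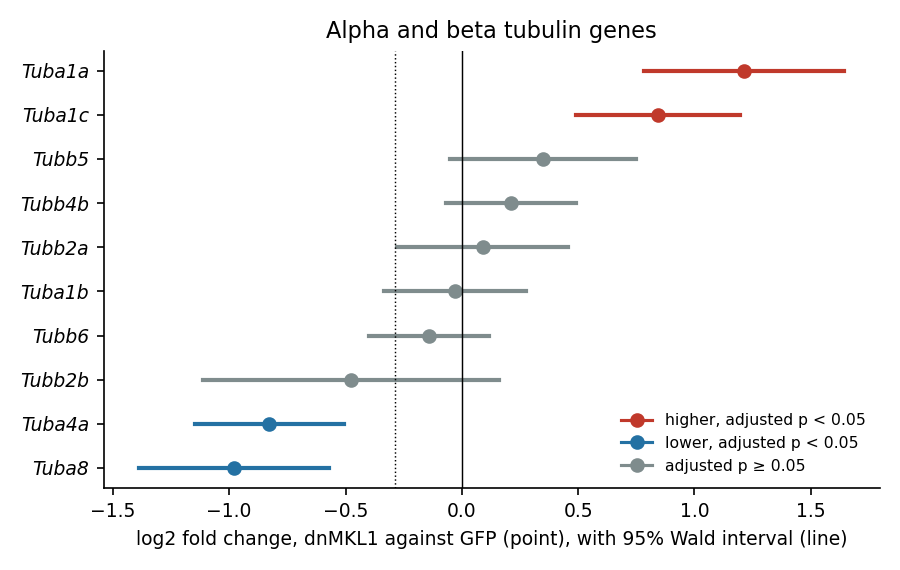
Log2 fold change of each tubulin gene in dnMKL1 against GFP libraries (x axis), with points for the authors' estimates and lines for 95% Wald intervals from their SEs; genes are sorted by fold change and coloured by call. Tuba1a and Tuba1c lie wholly above 0, Tuba4a and Tuba8 wholly below, and the other 6 intervals cross 0; the dotted line at -0.29 marks where 0 would lie if both groups were scaled to the same total count.

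None of the 5 beta isotypes was called by the authors' Wald test, and 0 had an unadjusted p-value under 0.05. Tubb4b, a beta isotype of ciliated and many other cells and the most abundant beta transcript here, had implied means of 2223 and 2574 normalized counts, with a log2 fold change of 0.21 (SE 0.14, adjusted p = 0.270) in the authors' deposited table. Tubb5, a widely expressed isotype of growing cells, had implied means of 732 and 932 normalized counts. For Tubb5 the authors' deposited table gave 0.35 (SE 0.20, adjusted p = 0.190), the highest among beta isotypes. The upper ends of their intervals, 0.49 for Tubb4b and 0.75 for Tubb5, limit a hidden rise only under the authors' size factors. With both groups scaled to the same total count, the estimates themselves were 0.50 and 0.64.

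Tubb6, a beta isotype that destabilises the polymer when overproduced and that rises in regenerating muscle, had implied means of 781 and 708 normalized counts. In the authors' deposited table its log2 fold change was -0.14 (SE 0.13, adjusted p = 0.457), with an interval from -0.40 to 0.12, the narrowest of the 10 genes. Tubb2a, best known from neurons, had implied means of 635 and 676 normalized counts and a log2 fold change of 0.090 (SE 0.19, adjusted p = 0.777) in the authors' deposited table. Tubb2b, its near-identical neighbour and an isotype of the developing brain, had 28.0 and 20.1 normalized counts, the least of the family. For Tubb2b the authors' deposited table gave -0.48 (SE 0.32, adjusted p = 0.275). Its interval, from -1.11 to 0.16, is the widest of the 10 genes and holds the estimate of Tuba4a.

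All directions above are relative to the authors' size factors. The implied means of all genes summed to 13330302 normalized counts with GFP and 10915829 with dnMKL1, and setting the sums equal adds 0.29 to every log2 value. Under that scaling the 4 called alpha genes kept their direction and their call, with log2 fold changes of 1.5 for Tuba1a, 1.13 for Tuba1c, -0.54 for Tuba4a and -0.69 for Tuba8. Tubb4b and Tubb5 were then called higher as well, at 0.50 (adjusted p = 0.00167) and 0.64 (adjusted p = 0.00556). Tuba1b and Tubb6 turned from below to above 0, to 0.26 and 0.15, and neither was called.

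Levels of different isotypes were compared per kilobase of 1 transcript per gene in GENCODE M21, that with the longest coding sequence. On this scale of implied means the alpha isotypes of the GFP group were ordered Tuba4a (5277 normalized counts per kb), Tuba8 (1291), Tuba1b (445), Tuba1a (248) and Tuba1c (87.7). In the dnMKL1 group the order was Tuba4a (2974), Tuba8 (655), Tuba1a (574), Tuba1b (436) and Tuba1c (157). Tuba1a thus stood below Tuba1b in the GFP group and above it in the dnMKL1 group. Counted per kilobase of windows found in no other gene, Tuba1b was the second highest alpha isotype in both groups, with 2700 and 2646 normalized counts per kb, and Tuba1a, with 1041 and 2413, stayed below it, so the order of these neighbours depends on how length is counted. The beta isotypes of the GFP group were ordered Tubb4b (1391 normalized counts per kb), Tubb6 (444), Tubb2a (394), Tubb5 (276) and Tubb2b (12.8), and those of the dnMKL1 group Tubb4b (1611), Tubb2a (420), Tubb6 (403), Tubb5 (352) and Tubb2b (9.22). Without values per library the spread of these levels is not known, and neighbours in either order were not tested against each other.

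**Figure D2:**
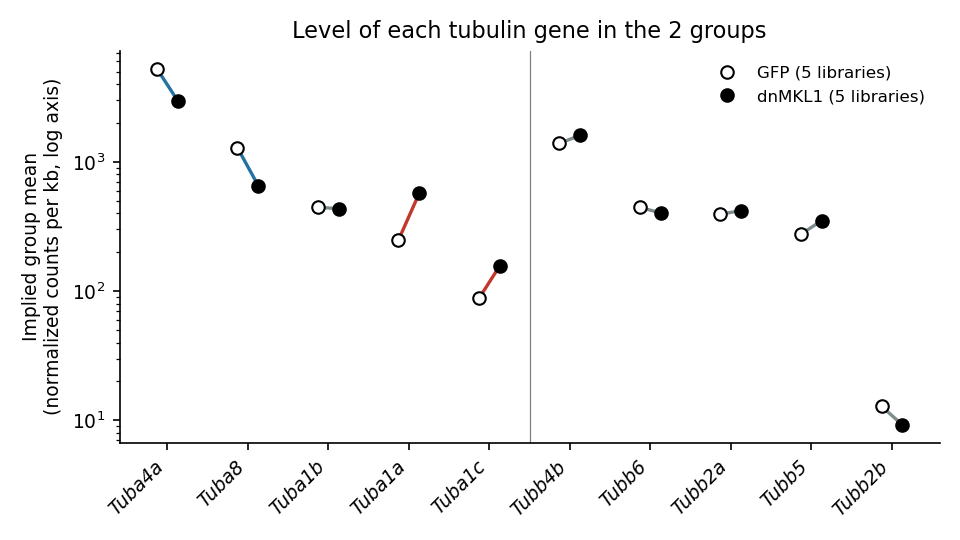
Implied group mean of each tubulin gene per kilobase of transcript (log axis) in GFP (open) and dnMKL1 (filled) libraries, alpha isotypes on the left and beta isotypes on the right; line colours follow the call of the gene. Tuba4a drops from 5277 to 2974 and remains the highest, while Tuba1a climbs from 248 to 574 normalized counts per kb.

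The makeup of the alpha transcript pool shifted with these changes, while that of the beta pool was similar in both groups. Tuba4a made up 71.8% of the summed alpha levels per kb with GFP and 62.0% with dnMKL1, and Tuba8 17.6% and 13.7%. The share of Tuba1a was 3.37% with GFP and 12.0% with dnMKL1, that of Tuba1b 6.05% and 9.08%, and that of Tuba1c 1.19% and 3.28%. Among beta isotypes Tubb4b made up 55.2% and 57.6%, Tubb6 17.6% and 14.4%, Tubb2a 15.7% and 15.0%, Tubb5 11.0% and 12.6%, and Tubb2b 0.509% and 0.330%. Tuba1a, Tuba1b and Tuba1c together had 780 normalized counts per kb with GFP and 1167 with dnMKL1, a log2 difference of 0.58. Tuba4a and Tuba8, whose ends are shown above, had 6568 and 3629, a log2 difference of -0.86. These sums were not tested, since they need values per library.

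**Figure D3:**
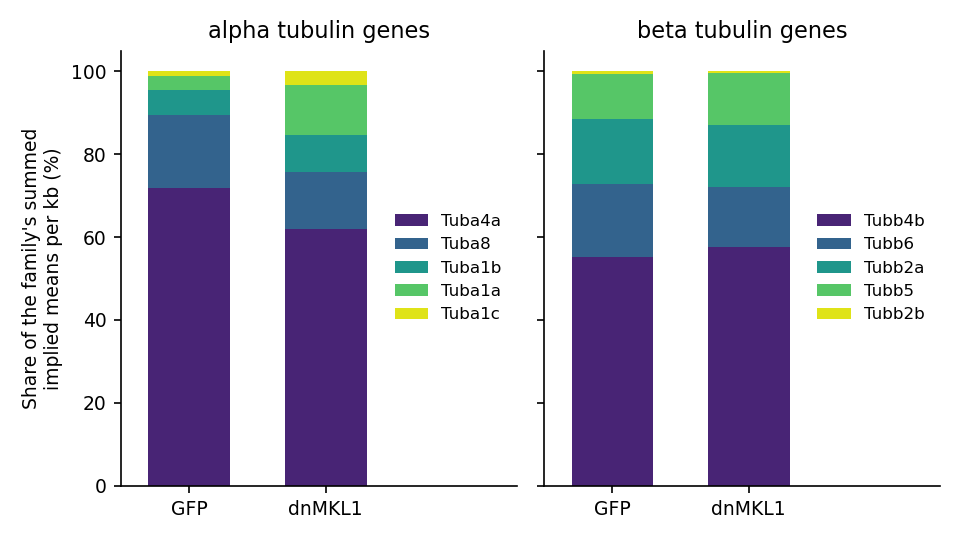
Share of each isotype in the summed implied means per kilobase (y axis, percent) of the alpha tubulin genes (left) and beta tubulin genes (right), in GFP and dnMKL1 libraries. Tuba4a takes 71.8% of the alpha pool in GFP and 62.0% in dnMKL1 libraries, and Tuba1a 3.37% and 12.0%; the beta bars are alike.

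Summed over isotypes, alpha transcripts came to 7348 normalized counts per kb with GFP and 4796 with dnMKL1, a log2 difference of -0.62. Beta transcripts came to 2519 and 2794, a log2 difference of 0.15. The ratio of alpha to beta transcript levels was 2.92 with GFP and 1.72 with dnMKL1. On the scale of windows found in no other gene the alpha sums differed by -0.40 and the ratio was 3.34 with GFP and 2.26 with dnMKL1, and without division by length by -0.68, with ratios of 4.39 and 2.45. The ratio was thus lower with dnMKL1 on all 3 scales.

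Tuba1a, Tuba1b and Tuba1c lie in a cluster that spans 107 kb of mouse chromosome 15 (GRCm38). By the GENCODE annotation Tuba1b is at chr15:98931425-98934565 and Tuba1a at chr15:98949837-98953703, both on the minus strand, and Tuba1c is at chr15:99029891-99038110 on the plus strand. The gene that was not called, Tuba1b, is thus next to the one with the highest fold change. Within 50 kb of the cluster the authors' table holds 5 other genes with an adjusted p-value, Rhebl1, Dhh, Lmbr1l, 4930578M01Rik and Troap, and none of them was called. Their log2 fold changes in the authors' deposited table ran from -0.41 for Troap to 0.38 for 4930578M01Rik, with base means from 2.41 to 124, so most were low in counts. Of the other isotypes, Tuba4a is at chr1:75214228-75219865 on the minus strand and Tuba8 at chr6:121210696-121226854 on the plus strand. Tubb2a and Tubb2b are neighbours on the minus strand, at chr13:34074274-34078007 and chr13:34126748-34130466. The remaining beta genes are spread over chromosomes 2 (Tubb4b), 17 (Tubb5) and 18 (Tubb6).

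The near-identical sequences of some isotypes bear on their counts, because a read that matches several genes can be dropped or split, and how the authors treated such reads is not given in the sources used here. Coding sequences of Tuba1a and Tuba1b were 98.3% identical, those of Tuba1a and Tuba1c 97.1%, and those of Tuba1b and Tuba1c 97.9%. Against Tuba4a and Tuba8 the same 3 genes were 84.7% to 85.2% and 78.8% to 79.9% identical. Among 50-base windows of these transcripts, 75.5% in Tuba1a, 83.1% in Tuba1b and 61.0% in Tuba1c occurred also in a transcript of another gene, pseudogenes and overlapping genes included. The values of these 3 genes are less certain for this reason, by an amount not known here. If shared reads were dropped, the values would rest on the remaining windows for reads of 50 bases, a length chosen here. Longer reads would share fewer windows. Tubb2a and Tubb2b were 96.5% identical in coding sequence, with 49.6% and 39.3% of their windows shared, and in Tubb4b 55.5% were shared, among them 43.6% with the pseudogene Tubb4b-ps1. Tubb5 and Tubb6 shared 0.115% and 0% of their windows. In Tuba8 14.7% were shared, nearly all with the antisense gene Gm15856. In Tuba4a 48.8% were shared, nearly all with Stk16, a kinase gene on the opposite strand whose annotated end overlaps that of Tuba4a by 1379 bases. Tuba1a and Tuba1b also overlap Gm49450, a gene model on the same strand, by 3715 and 2429 bases. Stk16 itself had a log2 fold change of 0.10 (SE 0.079, adjusted p = 0.359) in the authors' deposited table and a base mean of 567, against 11716 for Tuba4a.

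Fold changes differed with the base mean of the gene in these data, and the 2 alpha isotypes with the highest base means are those that fell. Per kilobase of windows found in no other gene, Tuba1b (2700 with GFP) stood above Tuba8 (1547), so this match depends on the scale. Among tested genes whose base mean was 10000 or more, the class of Tuba4a, 70.7% were lower and 3.57% higher, with a median log2 fold change of -0.60. From 1000 to 10000, the class of Tuba8 and Tubb4b, 40.1% were lower and 14.4% higher, with a median of -0.13. From 100 to 1000, the class of Tuba1a, Tuba1b, Tuba1c, Tubb2a, Tubb5 and Tubb6, 19.3% were lower and 20.0% higher, with a median of 0.0076. Tuba4a, at -0.83, was thus close to the median of its class, whereas Tuba8, at -0.98, and Tuba1a, at 1.21, were further from theirs. Whether the level of Tuba4a accounts for its fall was not tested.

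**Figure D4:**
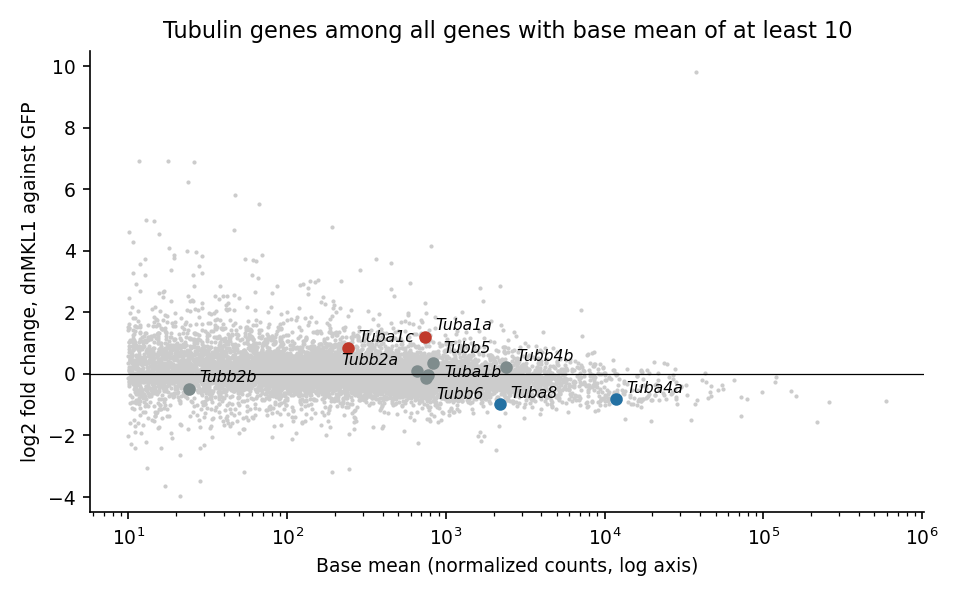
Log2 fold change (y axis) against base mean in normalized counts (x axis, log) for genes whose base mean was at least 10 (grey) and the tubulin genes (coloured by call: red higher, blue lower, dark grey not called). Tuba4a and Tuba8 lie at the lower right, where most abundant genes are below 0, and Tuba1a lies at 1.21, above most genes of its level; the point at 9.80 is Mkl1.

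Markers of cell types moved in the same comparison, and their part in the tubulin changes was not tested. Of 12 cardiomyocyte markers 8 were lower and 0 higher, with a median log2 fold change of -0.54. All 12 had base means of 10000 or more, where 70.7% of tested genes were lower, with a median of -0.60. That class held 140 genes, the 12 markers among them, so its median is in part their own. Whether level or cell type relates to the fall of these markers was not tested. Their summed implied means were 2062886 normalized counts with GFP and 1172435 with dnMKL1. Myl3, an essential myosin light chain, fell by 1.38 on the log2 scale (SE 0.12, adjusted p = 4.5e-26) and Myh6, the most abundant marker, by 0.87 (SE 0.11, adjusted p = 1.1e-12) in the authors' deposited table, so Tuba4a and Tuba8 fell alongside genes of the contractile apparatus. Of 12 fibroblast markers 5 were higher and 0 lower, with a median of 0.47 and sums of 5228 and 8877 normalized counts. Gsn, an actin-severing protein that other cells also make, rose by 1.15 (SE 0.10, adjusted p = 2.5e-27) and the collagen gene Col3a1 by 0.44 (SE 0.15, adjusted p = 0.0149) in the authors' deposited table. Of 12 endothelial markers 0 were called by the authors' Wald test, and 0 had an unadjusted p-value under 0.05, with sums of 4373 and 4445 normalized counts. Kdr, an endothelial growth factor receptor and the most abundant of them, had 0.097 (SE 0.29) and Cldn5, a junction protein, 0.20 (SE 0.34) in the authors' deposited table. Standard errors of the 12 endothelial markers ran from 0.25 (Flt1) to 0.52 (Fabp4). The median over tested genes with base means of at least 100 was 0.12. Changes of moderate size in this list could thus go uncalled. Of 9 mural markers 3 were higher and 1 lower, with 8 above 0, a median of 0.30 and sums of 18254 and 15947. Acta2, the most abundant of them, went from an implied mean of 10454 to 4999 normalized counts, and so weighs most in these sums. Of 10 tested macrophage markers 1 was higher and 0 lower, with 9 below 0, a median of -0.16 and sums of 183 and 162. Of 20 cell cycle markers 3 were higher and 1 lower, with 15 below 0, a median of -0.31 and sums of 2863 and 3019. In the authors' deposited table Acta2 had -1.06 (SE 0.25, adjusted p = 1.9e-04) and Cspg4 2.01 (SE 0.18, adjusted p = 2.4e-26). Cd68 had 1.03 (SE 0.39, adjusted p = 0.0283) there, against the direction of most genes in its list, and Mcm6 had 1.01 (SE 0.33, adjusted p = 0.00873). The 5 cell cycle markers above 0 were the DNA replication genes Mcm3, Mcm4, Mcm5, Mcm6 and Pcna, of which Mcm4, Mcm6 and Pcna were called. The 15 below 0 were Mcm2 and all the markers of that list other than Mcm genes and Pcna. Lyz2 (-0.55, SE 0.26) and Mcm2 (-0.0088, SE 0.24), the most abundant of their lists, were not called. None of the genes in these lists was listed at 0.

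Promoter sequences of the 4 called alpha isotypes are shown because SRF, the partner of MKL1, binds a DNA element called the CArG box, and a reader may look for it there. Each run holds the 250 bases before and the 50 bases after the gene start in RefSeq on GRCm38.p6, 5′ to 3′ on the strand of the gene. Capitals mark the CCAAT box, the GC box GGGCGG and the TATA box TATAAA on either strand. The windows are chr15:98953452-98953751 (minus) for Tuba1a, chr15:99029641-99029940 (plus) for Tuba1c, chr1:75219245-75219544 (minus) for Tuba4a and chr6:121210484-121210783 (plus) for Tuba8.
Tuba1a: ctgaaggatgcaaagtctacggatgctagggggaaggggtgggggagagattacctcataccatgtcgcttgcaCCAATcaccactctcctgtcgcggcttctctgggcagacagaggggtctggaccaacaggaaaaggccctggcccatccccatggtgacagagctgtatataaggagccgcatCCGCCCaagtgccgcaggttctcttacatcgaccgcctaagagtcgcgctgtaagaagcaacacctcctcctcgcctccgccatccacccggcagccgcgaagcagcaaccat
Tuba1c: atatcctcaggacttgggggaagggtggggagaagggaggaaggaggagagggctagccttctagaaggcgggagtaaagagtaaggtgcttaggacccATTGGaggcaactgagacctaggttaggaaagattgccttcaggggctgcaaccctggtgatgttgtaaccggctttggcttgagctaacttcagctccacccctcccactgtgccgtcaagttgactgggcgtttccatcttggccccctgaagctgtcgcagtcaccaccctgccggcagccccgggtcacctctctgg
Tuba4a: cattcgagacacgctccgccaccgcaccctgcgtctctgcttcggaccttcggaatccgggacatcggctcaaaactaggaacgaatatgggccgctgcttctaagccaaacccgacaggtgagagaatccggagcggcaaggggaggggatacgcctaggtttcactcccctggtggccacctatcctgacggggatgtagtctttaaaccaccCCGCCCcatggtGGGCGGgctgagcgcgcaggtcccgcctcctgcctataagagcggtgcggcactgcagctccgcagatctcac
Tuba8: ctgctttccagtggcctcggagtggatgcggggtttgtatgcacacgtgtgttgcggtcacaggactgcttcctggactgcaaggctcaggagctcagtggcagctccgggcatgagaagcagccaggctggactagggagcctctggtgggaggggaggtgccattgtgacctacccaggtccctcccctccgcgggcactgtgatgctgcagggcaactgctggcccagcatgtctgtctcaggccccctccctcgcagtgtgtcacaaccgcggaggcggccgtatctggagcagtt

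Of the 10 genes, 8 had a promoter entry, and Tubb2b and Tubb6 did not. The CArG box, searched as its consensus on both strands with any run of A or T in the middle, was found in 0 of these 8 windows and in 1.63% of 32817 promoter windows overall. No match says only that these letters are not in the window. CCAAT, searched on both strands, was present in Tuba1a, Tuba1c, Tubb4b and Tubb5, and in 37.4% of all windows. Tuba1a and Tuba1c each held 1 such match, at -176 and -151 from the start. Tuba4a and Tuba8 held none, and neither did Tuba1b and Tubb2a, which were not called. Of the other genes not called, Tubb5 held 2. Tubb4b held 5. GGGCGG was present in 6 of the 8 windows, among them Tuba1a and Tuba4a but not Tuba1c or Tuba8, and in 35.6% of all windows. TATAAA was present in Tubb2a and Tubb4b only, and in 13.6% of all windows. Matches of different motifs did not overlap each other, and each match is a description, not a binding site.

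The other tubulin genes were a list of 10, of which 7 were tested, 2 rose and 0 fell. Tubb3, the beta isotype used as a marker of neurons, had the highest fold change: 5.01 on the log2 scale (SE 0.91, adjusted p = 4.8e-07) in the authors' deposited table. Its implied means were 0.784 normalized counts with GFP and 25.2 with dnMKL1, so the size of the rise rests on very few reads in GFP libraries. With the GFP mean set to 3 normalized counts the log2 difference was 3.07. Tubd1, delta tubulin of the centriole, rose by 0.45 (SE 0.12, adjusted p = 0.0013) in the authors' deposited table. Tubg1, gamma tubulin, which seeds new microtubules, had -0.27 (SE 0.12, adjusted p = 0.0738) there, a value that turned to 0.019 under total-count scaling. Tubb4a, Tube1 and Tubg2 had base means from 12.2 to 26.6 and log2 fold changes of 0.15, 0.22 and 0.096 in the authors' deposited table, none of them called. Tuba3a, Tuba3b and Tubb1 had base means under 2 normalized counts, and Tubal3 was listed at 0.

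Neuronal and Schwann cell markers were read beside Tubb3, and their part in its rise was not tested. Of 12 such genes, 8 were tested, 2 rose (Tubb3 itself and S100b) and 0 fell, with summed implied means of 169 normalized counts with GFP and 238 with dnMKL1, most of it from Uchl1. Of the 8 tested, 7 were above 0, with a median log2 fold change of 0.44. Tubb3 itself is part of this count, of the median and of the sums, to which it gave 0.784 and 25.2 normalized counts. Nefm and Sox10, also above 0, had base means of 1.89 and 2.19. S100b, of glia, rose by 2.65 (SE 0.61, adjusted p = 9.9e-05) in the authors' deposited table, from an implied mean of 2.4 to 15.1 normalized counts, or by 2.33 with the GFP mean set to 3. Uchl1 had 0.34 (SE 0.16, adjusted p = 0.0913) there. Th, which defines sympathetic neurons, had a base mean of 0.145 in the authors' deposited table. Sox10, of Schwann cells, had a value of 0.47 (SE 0.93) on the log2 scale there, and Stmn2, of neurons and the only tested marker below 0, -0.48 (SE 0.55), and neither was called.

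Genes that fold, modify and bind tubulin, and genes of the sarcomere and membrane, were read in 11 further lists. A list is described here by its counts beside the 34.1% called among all genes. Folding was mixed and small in size: of 16 cofactor, prefoldin and feedback genes 3 rose and 6 fell, with a median log2 fold change of -0.14. Pdcl3, Arl2 and Vbp1 fell by 0.43 (SE 0.097), 0.35 (SE 0.087) and 0.42 (SE 0.11) in the authors' deposited table, and Tbcd and Tbce, cofactors that assemble the dimer, rose by 0.45 (SE 0.11) and 0.25 (SE 0.084). Of the 8 subunits of the chaperonin CCT, which folds new tubulin and actin, 2 fell and 0 rose: Tcp1 by 0.22 (SE 0.054) and Cct6a by 0.21 (SE 0.056) in the authors' deposited table, whereas Cct8, the most abundant, had -0.082 (SE 0.053). Under total-count scaling both lists turned the other way, with 7 folding genes and 6 CCT genes higher and 0 lower.

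Of 5 tested genes of detyrosination and tyrosination 1 rose and 1 fell. Vash2, a vasohibin that removes the terminal tyrosine, had implied means of 36.9 and 10.6 normalized counts and fell by 1.80 on the log2 scale (SE 0.31, adjusted p = 1.4e-07) in the authors' deposited table. Vash1 had -0.038 (SE 0.45), its partner Svbp (listed as Ccdc23) -0.084 (SE 0.12) and Ttl, the ligase that restores tyrosine, -0.32 (SE 0.18) there, and none of them was called. The gene listed as 4931428F04Rik, with a base mean of 81.6, rose by 0.47 (SE 0.15, adjusted p = 0.0086) in the authors' deposited table. It was placed in this list beside Matcap1, a symbol that had no match there. The called genes of this list, Vash2 and 4931428F04Rik, thus moved in opposite directions. With a base mean of at least 100, 2 genes of this list were left and 0 were called. Of 3 acetylation genes none was called by the authors' Wald test, though all 3 were called higher under total-count scaling: the acetylase Atat1 had 0.37 (SE 0.17, unadjusted p = 0.0295), the deacetylase Hdac6 0.19 (SE 0.094, unadjusted p = 0.0390) and Sirt2 0.040 (SE 0.082) in the authors' deposited table. Of 14 tested genes of polyglutamylation and glycylation 1 rose and 4 fell. Ttll1, a polyglutamylase, fell by 0.91 (SE 0.11, adjusted p = 3.7e-14) and Agtpbp1, which trims glutamates, by 0.71 (SE 0.16, adjusted p = 1.1e-04) in the authors' deposited table. Agbl1 and Agbl2, related enzymes at base means of 5.06 and 27.1, fell by 1.61 (SE 0.62, adjusted p = 0.0317) and 1.02 (SE 0.31, adjusted p = 0.00509) there, and Ttll12 rose by 0.47 (SE 0.13, adjusted p = 0.00185).

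Proteins that bind the microtubule wall differed by gene, with 6 of 19 higher and 5 lower. The authors' deposited table gave rises of 1.33 (SE 0.15, adjusted p = 8.7e-16) for Map1b, 1.43 (SE 0.25, adjusted p = 1.1e-07) for Map6 and 1.85 (SE 0.41, adjusted p = 5.1e-05) for Map1a, which stabilise microtubules in neurons, and these are listed as Mtap1b, Mtap6 and Mtap1a. Map4 (listed as Mtap4), the most abundant of the list and the main such protein of heart, rose by 0.48 (SE 0.10, adjusted p = 2.4e-05), from 4383 to 6110 normalized counts, while Mapt, which encodes tau, fell by 0.79 (SE 0.15, adjusted p = 7.1e-07) there.

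At microtubule ends 2 of 15 genes rose and 2 fell. Mapre1, which encodes the end-binding protein EB1, rose by 0.41 (SE 0.059, adjusted p = 1.7e-10) and Macf1 by 0.40 (SE 0.13) in the authors' deposited table, while Clasp1, the most abundant, and Clip1 fell by 0.26 (SE 0.093) and 0.29 (SE 0.10). Of 11 tested destabilising and severing genes 1 rose and 3 fell. The severing ATPases Spast and Fign fell by 0.51 (SE 0.095) and 0.46 (SE 0.12) and the depolymerising kinesin Kif2a by 1.06 (SE 0.22) in the authors' deposited table, and Stmn4 rose by 3.76 (SE 0.85) from an implied mean of 0.988 to 13.4 normalized counts, or by 2.16 with the GFP mean set to 3. Of 19 genes of nucleation and anchoring at the nuclear envelope 2 rose (Tubgcp4 and Camsap2) and 1 fell (Pcnt), while 9 rose and 0 fell under total-count scaling, and Akap6, which organises microtubules at the nucleus of muscle cells, had -0.037 (SE 0.15, adjusted p = 0.895) in the authors' deposited table.

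Of 31 tested motor genes 10 rose and 3 fell. The dynein light chain Dynll1 rose by 0.98 (SE 0.19, adjusted p = 3.1e-06) while its paralog Dynll2 fell by 0.54 (SE 0.15, adjusted p = 0.0016) in the authors' deposited table. Kif3b, Dctn5 and Dctn3 rose by 0.69 (SE 0.15), 0.33 (SE 0.091) and 0.23 (SE 0.064) there, and Kif1b, the most abundant, had -0.26 (SE 0.16). In a list of 11 genes of the sarcomere, the membrane and their links to microtubules 2 rose and 6 fell. Not every gene of this list is known here to bind microtubules. Des, which encodes desmin and was the most abundant, fell by 0.27 (SE 0.10, adjusted p = 0.0238), and Nexn, Jph2 and Dmd by 0.70 (SE 0.086), 0.84 (SE 0.11) and 0.57 (SE 0.16) in the authors' deposited table, while the gap junction gene Gja1 rose by 0.32 (SE 0.068). Over these lists and the other tubulin genes together, 30 of 159 tested genes rose and 33 fell. The split was 70 higher and 11 lower under total-count scaling, so the directions of small changes depend on the scaling, unlike those of the 4 called alpha tubulins.

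**Figure D5:**
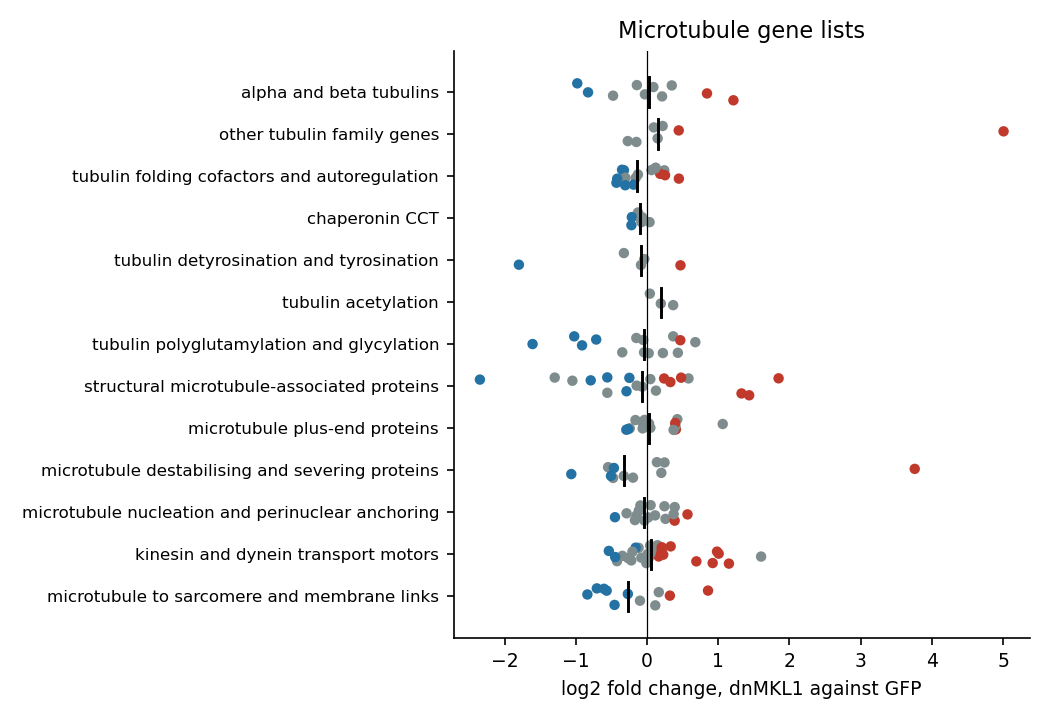
Log2 fold change in dnMKL1 against GFP libraries (x axis) of every tested gene in the tubulin family and 11 lists of microtubule genes (rows), with red for higher, blue for lower and grey for not called; the black bar is the median of the list. The alpha and beta tubulin genes spread from -0.98 to 1.21 around a median of 0.030, and Tubb3 and Stmn4 stand at the right, at 5.01 and 3.76.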

How the data were processed

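The members and all gene lists were chosen with earlier results of these data known. Per the submitters' processing notes, reads were handled with CASAVA 1.8, STAR 2.5.3a and featureCounts (Subread 1.5.2) against mm10. Strand use, multi-mapping reads and the annotation release are not given in the sources used here. Per the file headers, the authors deposited a DESeq2 results table with 1 row per gene symbol. Its base mean is a signal, the mean over the 10 libraries of counts divided by size factors, by the authors. The authors deposited the log2 fold change with its standard error, the Wald statistic as a score, and the p-value with its Benjamini-Hochberg adjusted value. Adjusted p-values were given for 14056 genes, with base means from 1.31, while 3315 had a fold change without one and 5966 were listed at 0. The table has no values per library, so no count test was run, and precision rests on the authors' standard errors. The labels call the 5 libraries of a group biological replicates.

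Group means were implied from base mean and fold change, intervals are 95% Wald intervals, and levels were divided by transcript length. Low means were raised to 3 normalized counts where stated. Older symbols were matched through RefSeq synonyms. Python 3.11.15, pandas 2.3.3, numpy 2.4.6, scipy 1.17.1 and matplotlib 3.10.9 were used, and the scripts were tested on simulated data. The genes named were all members, other tubulins with a base mean of at least 10, up to 5 called genes with the smallest p-values and the most abundant gene of each microtubule list, the most abundant and the lowest-p gene of each marker list, and Mkl1 and Srf. Some genes and sequences under this rule are not reported here. The tubulins and marker genes named near 0 or for their cell type, and the neighbours of the Tuba1 cluster, were added after their values were seen. Genes with a pattern like that of a member could not be ranked from 1 comparison. Alternatives were a threshold of 0.01, total-count scaling, centring on the median, adjustment over every p-value, a base mean of at least 100, a log2 fold change of at least 0.5, and other length scales.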

Additional observations from a re-analysis of the deposited data

How the results depend on the processing

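All 10 tubulin genes kept their call with an adjusted p threshold of 0.01, median-centring, adjustment over every p-value and a log2 fold change of at least 0.5, as did the 9 with a base mean of at least 100. Only median-centring and total-count scaling alter a log2 value, so the other settings could not change a direction. Median-centring moved values by only 0.0041. The 4 called genes lay far from the other thresholds, so all these settings except total-count scaling were weak checks. Total-count scaling called 6 (4 higher, 2 lower) in place of 4, adding Tubb4b and Tubb5, and turned Tuba1b to 0.26, Tubb6 to 0.15 and Tubg1 to 0.019. It moves every value by 0.29. Under it the calls among all genes were 5685 higher and 927 lower, in place of 2340 and 2452, and in the other microtubule lists, other tubulins included, 70 and 11 in place of 30 and 33. With a log2 fold change of at least 0.5 these lists held 27 called genes in place of 63, and all genes 2735 in place of 4792; fewer genes can pass that filter. The share of Tuba4a was 77.6% in GFP and 70.2% in dnMKL1 libraries without division by length, and 65.5% and 48.6% per kilobase of windows found in no other gene, a scale chosen after seeing the data. The share of Tubb4b was 50.5% and 52.4%, and 67.3% and 69.4%, on the same scales.

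No paired analysis was possible because the table holds no values per library. For the same reason the replicate block, leaving out each replicate, and the count tests were not run, and the weight of any single library is unknown. Depth limits Tubb2b, Tubb3 and the other tubulins of low level most.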
